A study of Mus musculus with 12 samples.

Results

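The mitochondrial carrier family of solute carrier family 25 was described across WAT (white adipose tissue), BAT (brown adipose tissue), liver and quadriceps muscle. Members were all gene symbols made of Slc25a and a number, together with Ucp2 and Ucp3, which belong to the same family under older names. This gave 49 genes of 22276, of which 47 carried an Slc25a symbol. An FPKM (a level scaled to the length of the gene and to the size of the library) of at least 1 was reached by 43 of them in at least 1 library and by 24 in all 12 libraries. The other 6 (Slc25a2, Slc25a18, Slc25a31, Slc25a41, Slc25a53 and Slc25a54) stayed under 1 FPKM in every library.

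The data were RNA-seq libraries of male C57BL/6J mice, a common inbred strain, killed at 17 weeks of age. NCD-veh mice ate a normal chow diet, and HFD-veh and HFD-ncls mice ate a high-fat diet from 8 weeks of age. From 10 weeks, over 7 weeks, HFD-ncls mice were gavaged weekly with narciclasine (ncls), a plant alkaloid, while both other groups were given the cyclodextrin vehicle (veh). There was 1 library for each organ and group, so there are no replicates within an organ, and every ratio below describes a pair of libraries with no p-value. Neither the number of mice behind a library nor the depot of the WAT is given in the sources used here.

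Mitochondrial carriers are small proteins of the inner mitochondrial membrane that exchange one metabolite for another, since that membrane is closed to most solutes. They bring phosphate, ADP and fuels into the matrix and let out ATP, citrate and other products. Several transport steps can be carried out by more than one related gene, so that organs may use different genes for the same exchange. Uncoupling proteins belong to the same family, and Ucp1 of brown fat, which lets protons return without making ATP, is its best known member.

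The organ labels were checked with marker genes. Ucp1 stood at 739.6 to 769.8 FPKM in BAT against 2.38 to 3.92 in WAT, and the markers of each labelled organ were present. Some libraries also held RNA typical of another organ. Over 578 liver-enriched genes, the HFD-veh muscle library held an amount of liver RNA of 0.566% of the level in liver. HFD-ncls WAT held 0.251% and HFD-veh WAT 0.0531%, each amount being above the lowest library of that organ. Over 299 muscle-enriched genes, BAT held muscle RNA of 1.70% in NCD-veh and 0.688% in HFD-veh above the level in HFD-ncls, and HFD-veh liver held 0.0608%. For several carriers abundant in liver or muscle, the ratio is given both as deposited and after subtraction of these amounts. Values with no subtracted value beside them are as deposited and can include such RNA. Depth, read from the steps of the lowest FPKM values, was approximately 18600000 to 25700000 fragments per library.

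The most abundant carriers were partly shared between organs. The summed FPKM of the 49 genes was 0.336 to 0.397% of all FPKM in WAT, 0.341 to 0.417% in liver, 0.590 to 0.656% in BAT and 0.765 to 0.852% in muscle. By mean FPKM over an organ's 3 libraries, WAT led with Slc25a1 at 181, Slc25a5 at 165, Slc25a3 at 154, Slc25a4 at 149 and Ucp2 at 100.1. BAT led with Slc25a4 at 225, Slc25a20 at 222, Slc25a39 at 187, Slc25a5 at 166 and Slc25a1 at 156. The BAT values are as deposited, without subtraction of muscle RNA. Ucp1, left out of the 49 genes and their sums by the naming rule, was higher still in BAT, at 739.6 to 769.8 FPKM. The order of the organs by summed FPKM thus holds for these 49 genes alone. Liver was headed by Slc25a47, a carrier named for its presence in liver, at 333, then Slc25a39, which brings glutathione into the matrix, at 287, Slc25a5 at 234, Slc25a3 at 152 and Slc25a1 at 147. Muscle was dominated by Slc25a4 at 2046 FPKM, which made up 70.5% of its summed carrier FPKM. It was followed at a distance by Slc25a3 at 329, Slc25a12 at 107, Slc25a11 at 90.9 and Ucp3 at 87.7. Slc25a1 and Slc25a5 were thus among the 5 highest of WAT, BAT and liver, Slc25a3 among those of WAT, liver and muscle and Slc25a4 among those of WAT, BAT and muscle. Slc25a39 was among those of BAT and liver, while Ucp2, Slc25a20, Slc25a47, Slc25a12, Slc25a11 and Ucp3 each stood in the list of 1 organ.

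**Figure D1:**
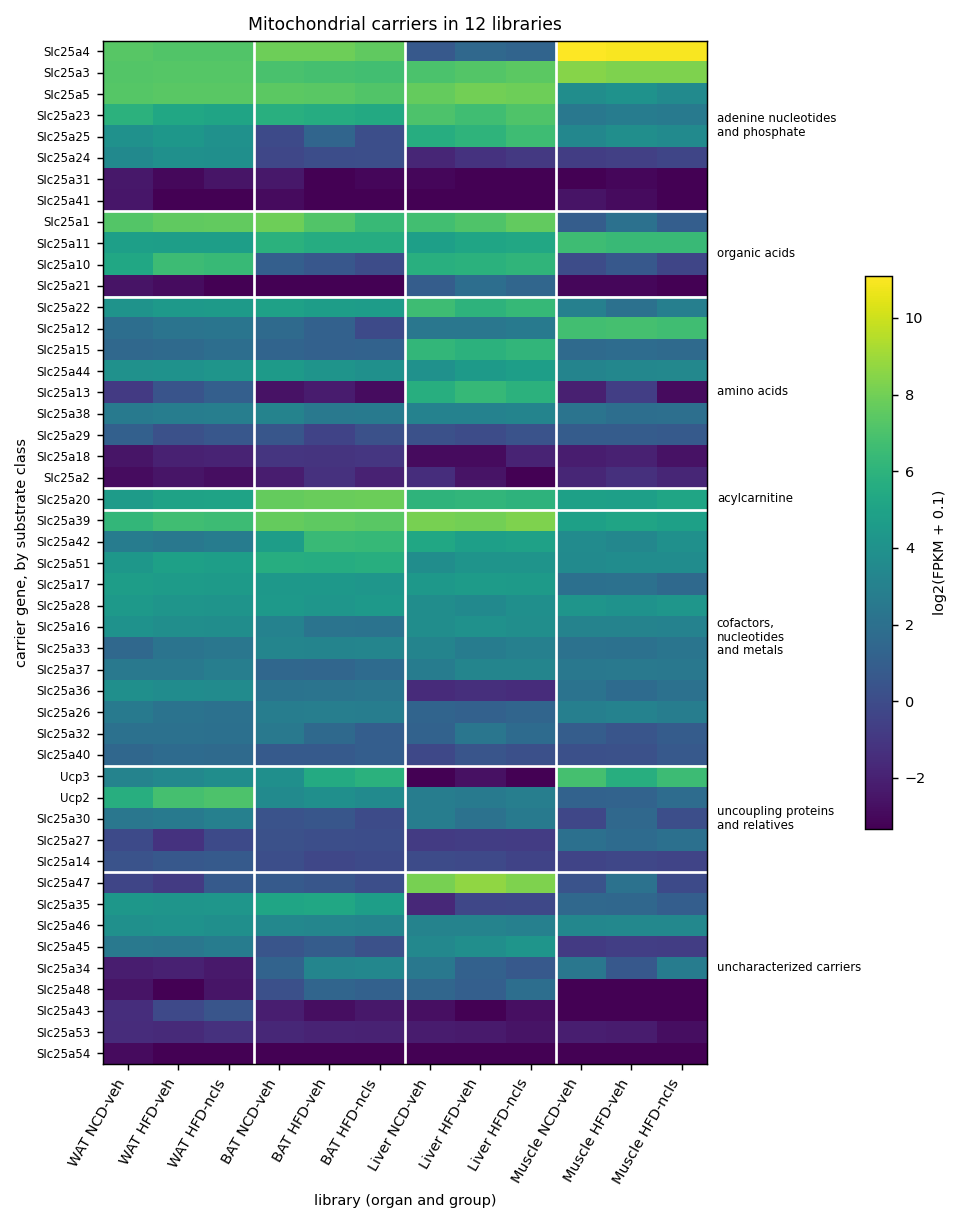
Level of 48 mitochondrial carriers in each of the 12 libraries as log2(FPKM + 0.1), with carriers in rows by transport class and libraries in columns by organ and group. Slc25a4 in muscle, at 1958 to 2181 FPKM, is the brightest cell, and Slc25a47 stands out in liver alone.

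A carrier was called preferred by an organ where the lowest of its 3 libraries was at least 2 times the highest of the other 9 on log2(FPKM + 0.1). That held for 14 of the 43 carriers, or 32.6%, which is near the 32.3% of all 13648 genes tested. By organ, WAT preferred 3 carriers (background 18.2% of genes), BAT 2 (1.22%), liver 6 (7.64%) and muscle 3 (5.27%). With 43 carriers these counts are small, and they were not tested. A limma fit over all 12 libraries with organ and group as terms, chosen after the data were seen, called all 43 carriers different between organs at an adjusted p under 0.05, as it did 97.9% of all genes, so that nothing in this sets carriers apart.

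The exchange of ADP for ATP, by which ATP leaves the matrix, differed between organs in the genes used. Slc25a4 (ANT1; mm9 chr8:47292151-47296638) was listed in muscle at 2181 FPKM for NCD-veh, 1958 for HFD-veh and 1999.8 for HFD-ncls, and in liver at 1.52, 2.81 and 2.39 FPKM in the same order. Slc25a5 (ANT2; mm9 chrX:34335646-34338802) was high where Slc25a4 was low, at 206, 256 and 239.7 FPKM in liver and 13.2, 16.5 and 12.05 FPKM in muscle. As a share of the summed ADP/ATP carriers, Slc25a4 made up 99.2 to 99.4% in muscle and 0.734 to 1.09% in liver. Both fats used both genes, with a Slc25a4 share of 45.5 to 51.0% in WAT and 56.6 to 58.5% in BAT. In WAT, Slc25a4 was listed at 161, 143 and 143 FPKM and Slc25a5 at 155, 171 and 169.7 FPKM. In BAT the levels were 241, 240.4 and 192 FPKM for Slc25a4 and 179, 170.5 and 147 FPKM for Slc25a5. These BAT values include muscle RNA, in which Slc25a4 is abundant. It was estimated at 1.70% in NCD-veh and 0.688% in HFD-veh above the level in HFD-ncls. The HFD-ncls library, with the least muscle RNA, had a Slc25a4 share of 56.6%. The third gene of this exchange, Slc25a31, known from testis, did not exceed 0.0919 FPKM in any library. Slc25a4 and Slc25a5 are close in sequence, so that some reads could have been assigned to the wrong gene, and the low liver value of Slc25a4 in HFD-veh came down to 1.62 FPKM when muscle RNA was subtracted.

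Phosphate, the other substrate of ATP synthesis, enters through Slc25a3. Its level in muscle was 359 FPKM for NCD-veh, 315 for HFD-veh and 313 for HFD-ncls, above every library of the other organs. Elsewhere the levels overlapped, at 148 to 159 FPKM in WAT, 105 to 126 in BAT and 128 to 176 in liver. Carriers for ATP-Mg and phosphate, which calcium activates and which set the nucleotide content of the matrix, were divided differently. Slc25a23 made up 93.3 to 97.1% of their sum in BAT, 59.0 to 72.0% in liver, 52.7 to 68.8% in WAT and 31.4 to 33.6% in muscle. Slc25a25 took most of the rest in muscle, at 9.96 to 13.8 FPKM, and was also preferred by liver, at 51.2 to 96.4 FPKM. Slc25a24 was preferred by WAT, at 11.6 to 15.0 FPKM against at most 1.00 in the other organs.

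The aspartate-glutamate carriers of the malate-aspartate shuttle, which moves reducing equivalents of NADH into mitochondria, were split between muscle and liver. Slc25a12 (AGC1; mm9 chr2:71109120-71205806) was preferred by muscle, at 105 FPKM for NCD-veh, 114 for HFD-veh and 104 for HFD-ncls, against 0.840 to 5.92 FPKM in the other organs. Slc25a13 (AGC2, or citrin; mm9 chr6:5991219-6167173) was preferred by liver, at 53.4 FPKM for NCD-veh, 79.5 for HFD-veh and 61.4 for HFD-ncls, against 0.0366 to 1.94. Slc25a12 thus made up 99.5 to 99.96% of the pair in muscle and 6.04 to 8.79% in liver. In the fats its share was 94.9 to 98.1% in BAT and 71.4 to 88.9% in WAT, where both genes were low. Slc25a11, the oxoglutarate-malate partner of the same shuttle, was highest in muscle at 87.4 to 96.4 FPKM and lowest in WAT at 27.3 to 27.8.

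**Figure D2:**
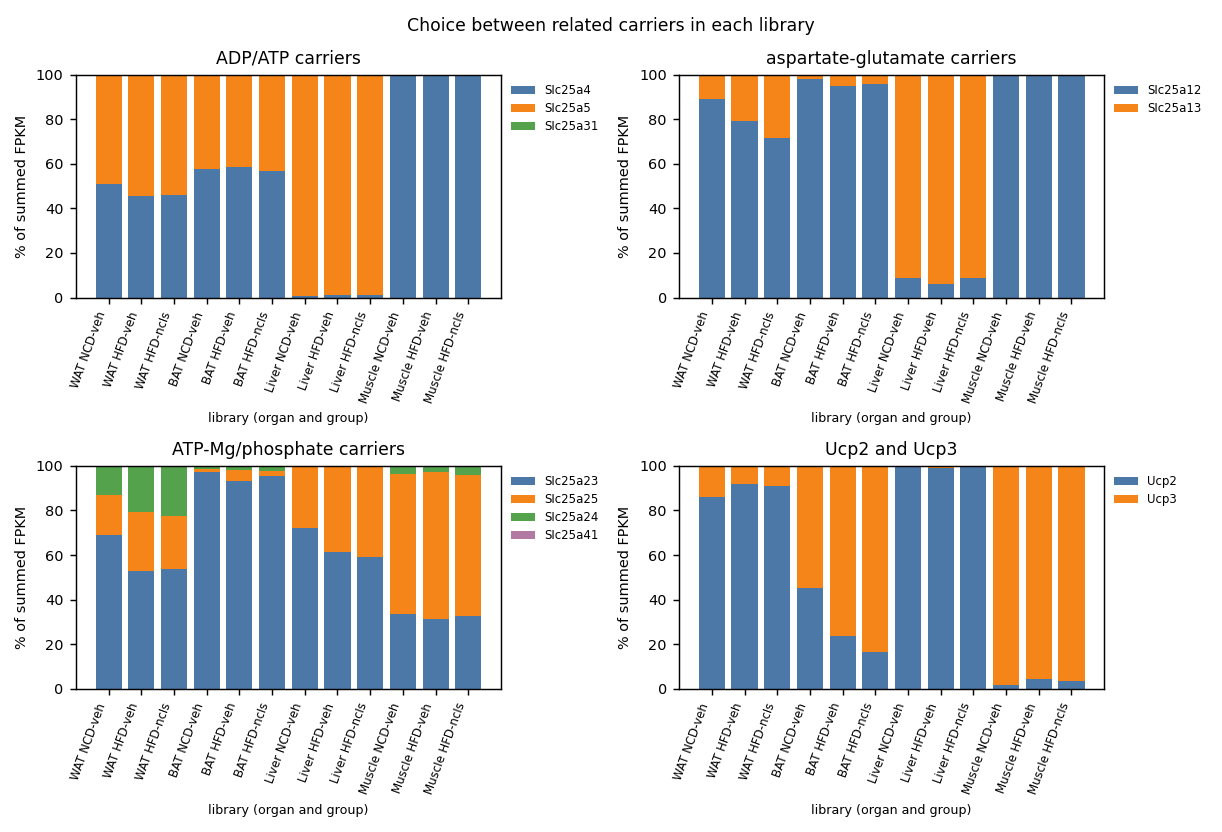
Percentage of the summed FPKM contributed by each related carrier in each of the 12 libraries, for ADP/ATP carriers, aspartate-glutamate carriers, ATP-Mg/phosphate carriers and the pair Ucp2 and Ucp3. Slc25a4 fills over 99% of the ADP/ATP bar in muscle and about 1% in liver, and Ucp3 fills over 95% of its pair in muscle.

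Liver also preferred Slc25a15, Slc25a22, Slc25a21 and Slc25a47. Slc25a15, the ornithine-citrulline exchanger of the urea cycle, was at 60.8 to 75.6 FPKM in liver and 2.16 to 3.58 elsewhere. Slc25a22, which imports glutamate, was at 62.8 to 97.7 FPKM against 4.11 to 29.8. Slc25a21, which carries the lysine and tryptophan product oxoadipate, was low and passed 1 FPKM in liver alone, at 1.82 to 3.57 FPKM against at most 0.0669 in the other organs. Slc25a47 (mm9 chr12:110089339-110095024) stood far apart, at 278 FPKM for NCD-veh, 407 for HFD-veh and 313 for HFD-ncls in liver and 0.458 to 4.28 FPKM elsewhere.

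Citrate and dicarboxylate carriers were low in muscle. Slc25a1, which exports citrate for the synthesis of fatty acids in the cytosol, ranged over 153 to 199 FPKM in WAT, 84.7 to 238 in BAT, 105 to 195 in liver and 1.77 to 4.13 in muscle. Slc25a10, which exchanges malate or succinate for phosphate, was at 38.1 to 95.1 FPKM in WAT and 54 to 67.9 in liver, but at 0.918 to 1.97 in BAT and 0.722 to 1.47 in muscle. Both were thus low in muscle, while BAT combined high Slc25a1 with low Slc25a10.

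Slc25a20, the carnitine-acylcarnitine exchanger through which long-chain fatty acids enter the matrix, was preferred by BAT. Its level there was 207 FPKM for NCD-veh, 225 for HFD-veh and 235 for HFD-ncls. Liver had 64.7 to 71.2 FPKM, muscle 28.5 to 35.4 and WAT 24.3 to 33.1. BAT also had the most RNA for 9 enzymes of the citric acid cycle in the matrix, with a summed level of 3692 to 4092 FPKM against 1827 to 1912 in muscle, 848 to 966 in WAT and 547 to 744 in liver. Per FPKM of these enzymes, Slc25a20 came to 0.0870 to 0.123 in liver and 0.0553 to 0.0574 in BAT, so that liver stood above BAT on this scale. The sum of all 49 carriers per FPKM of the same enzymes was 2.66 to 3.22 in liver, 1.51 to 1.62 in muscle, 1.22 to 1.64 in WAT and 0.369 to 0.460 in BAT.

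Some carriers of cofactors and nucleotides differed between organs, while others were at like levels. Slc25a36, which carries pyrimidine nucleotides, was preferred by WAT, at 12.4 to 14.7 FPKM against 0.246 to 4.89, and its relative Slc25a33 took 95.8 to 97.3% of the pair in liver and 16.4 to 29.2% in WAT. Slc25a51, which imports NAD, was highest in BAT at 49.4 to 52.2 FPKM, against 12.03 to 28.9. Of the glutathione carriers, Slc25a39 made up at least 95.0% of the pair with Slc25a40 in every library. Of the mitoferrins, which import iron, Slc25a28 was the larger in all 12 libraries, with a share of 55.6 to 67.1% in liver and 87.2 to 88.6% in BAT.

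Among uncoupling proteins, Ucp2 (mm9 chr7:107641846-107650529), which is found in many tissues and in immune cells, was preferred by WAT, at 52.9 to 132 FPKM against 2.17 to 14.2 elsewhere. Ucp3 (mm9 chr7:107621499-107634941), known from muscle and brown fat, was highest in muscle at 52.7 to 115 FPKM and next in BAT at 14.5 to 58.8. The ranges of these organs overlapped, since the HFD-veh muscle library lay under HFD-ncls BAT. Ucp3 made up 95.7 to 98.1% of the pair in muscle, 54.7 to 83.3% in BAT, 8.35 to 14.1% in WAT and 0 to 0.911% in liver, where it was listed at 0 in NCD-veh and HFD-ncls. Slc25a27 (UCP4), low throughout, was preferred by muscle at 3.17 to 3.87 FPKM against at most 1.07. The relatives Slc25a14 and Slc25a30 did not pass 7.78 FPKM in any library.

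The remaining carriers were shared more evenly or were low. Slc25a28, Slc25a38 (glycine import for haem), Slc25a44 (branched-chain amino acid import), Slc25a46 (an outer membrane protein of mitochondrial dynamics) and Slc25a26 (S-adenosylmethionine import) had organ means that differed by at most 3.20-fold, as did Slc25a37, the other mitoferrin. Slc25a17, a peroxisomal carrier of cofactors, was lower in muscle, at 2.94 to 3.998 FPKM against 18.9 to 26.2. Slc25a35, whose substrate is not settled, was at 27.1 to 38.8 FPKM in BAT, 18.5 to 19.7 in WAT and at most 2.83 in the other organs. Slc25a45 was highest in liver at 10.6 to 18.0 FPKM. Slc25a29, a carrier of basic amino acids, did not pass 2.06 FPKM in any library.

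The comparison of HFD-veh with NCD-veh asks how the diet alone went with carrier levels. Ratios are log2 of (FPKM + 0.1) over (FPKM + 0.1) for genes at 1 FPKM or more in at least 1 library of the pair, a scale that understates the differences of low genes. HFD-ncls is set against HFD-veh afterwards, and since both comparisons use the same HFD-veh library, an unusual value there moves both in opposite directions. In bulk tissue, fewer cells of a type and less RNA per cell cannot be told apart.

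In HFD-veh BAT, 5 of 38 tested carriers were over 2-fold higher than in NCD-veh and none was over 2-fold lower. At 1.4-fold the counts were 5 higher (9.34% of all genes) and 6 lower (8.24%), and 24 of the 38 ratios were below 0. At 2-fold, of all genes, 2.28% were over 2-fold higher, 2.01% lower and 4.29% either. Slc25a34 (mm9 chr4:141174739-141179736), a carrier whose substrate is not settled, was listed in BAT at 2.32 FPKM for NCD-veh, 9.20 for HFD-veh and 9.96 for HFD-ncls, a log2 ratio of 1.94 for HFD-veh. Slc25a42 (mm9 chr8:72708239-72736204), which imports coenzyme A, was at 25.8 FPKM for NCD-veh, 87.6 for HFD-veh and 79.4 for HFD-ncls, a log2 ratio of 1.76. Ucp3 was at 14.5 FPKM for NCD-veh, 45.5 for HFD-veh and 58.8 for HFD-ncls, a log2 ratio of 1.64. For all 3 genes both HFD libraries lay above the NCD-veh library. Ucp1 differed little, at 769.8, 768 and 739.6 FPKM. Muscle RNA was highest in the NCD-veh BAT library, and after its subtraction these ratios were 1.99 for Slc25a34, 1.77 for Slc25a42 and 1.84 for Ucp3.

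Slc25a25 and Slc25a48, both low in BAT, were the other carriers over 2-fold higher. Slc25a25 was at 0.836 FPKM for NCD-veh, 2.51 for HFD-veh and 0.993 for HFD-ncls, high in HFD-veh alone, with a log2 ratio of 1.48. Slc25a48 was at 1.06 FPKM for NCD-veh, 2.55 for HFD-veh and 2.15 for HFD-ncls, with a log2 ratio of 1.19. The lowest ratios in this comparison were those of Slc25a29 at -0.95, Slc25a32, which imports folate and FAD, at -0.90 and Slc25a16, a carrier related to that of coenzyme A, at -0.89. The median log2 ratio was -0.07 over the carriers and -0.04 over all genes.

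Ucp3, Slc25a34 and Slc25a42 had the 3 highest ratios of HFD-veh over NCD-veh in BAT and were chosen for this from these data. Slc25a48, also higher in both HFD libraries of BAT, is not shown. The sequence around the start sites of the 3 runs from 250 bases before to 50 bases after the annotated start, in RefSeq's table for build GRCm38.p6. Coordinates of this build are not those of mm9 given above. Capitals mark the letters AGGTCA on either strand, the hexamer that many nuclear receptors recognise.
Ucp3 (chr7:100472741-100473040, plus strand): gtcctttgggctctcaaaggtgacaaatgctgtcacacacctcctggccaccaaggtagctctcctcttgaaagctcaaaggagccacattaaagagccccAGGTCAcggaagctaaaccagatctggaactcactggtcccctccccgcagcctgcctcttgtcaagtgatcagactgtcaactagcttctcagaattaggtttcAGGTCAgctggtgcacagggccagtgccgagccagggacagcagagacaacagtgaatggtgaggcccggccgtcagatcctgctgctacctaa
Slc25a34 (chr4:141623785-141624084, minus strand): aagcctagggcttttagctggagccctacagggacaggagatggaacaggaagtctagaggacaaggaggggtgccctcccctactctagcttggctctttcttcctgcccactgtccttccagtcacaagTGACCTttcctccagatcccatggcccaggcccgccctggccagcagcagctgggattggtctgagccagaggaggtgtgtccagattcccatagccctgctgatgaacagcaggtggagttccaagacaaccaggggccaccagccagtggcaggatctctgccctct
Slc25a42 (chr8:70212232-70212531, minus strand): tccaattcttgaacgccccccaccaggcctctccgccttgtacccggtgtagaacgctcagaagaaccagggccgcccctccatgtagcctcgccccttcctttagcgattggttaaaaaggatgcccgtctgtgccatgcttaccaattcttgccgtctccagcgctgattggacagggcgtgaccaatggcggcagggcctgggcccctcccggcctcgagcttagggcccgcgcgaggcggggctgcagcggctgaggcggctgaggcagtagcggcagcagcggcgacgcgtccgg
The hexamer was found 2 times in the Ucp3 window, at -149 and -44 from the start site, and once in that of Slc25a34, at -119. No match was found in the Slc25a42 window, which held CCAAT 5 times on either strand.

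Promoter entries matched 38 of the 49 carriers, with 48 promoters. AGGTCA was present in 5 of the 48, or 10.4%, against 16.3% of all 32851 promoters of this length, so the hexamer was not more frequent among carriers. The others with it were Slc25a39, Slc25a45 and Slc25a47. The GC box GGGCGG was in 81.3% of carrier promoters and 35.7% of all, CCAAT in 45.8% and 37.4%, and TATAAA in 4.17% and 13.6%, each read on both strands. The longer TCAAGGTCA, which contains the hexamer, was in none of the 48 and in 0.423% of all. These matches describe letters and were not tested as binding sites.

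In HFD-veh muscle, 3 of 36 carriers were over 2-fold higher than in NCD-veh (3.14% of all genes) and 2 were over 2-fold lower (0.97%, or 4.11% either). Ucp3 and Slc25a34, higher in HFD BAT, were the lower genes here. Ucp3 in muscle was listed at 115 FPKM for NCD-veh, 52.7 for HFD-veh and 95.2 for HFD-ncls, a log2 ratio of -1.12 for HFD-veh. Slc25a34 was at 5.09 FPKM for NCD-veh, 1.48 for HFD-veh and 6.59 for HFD-ncls, a log2 ratio of -1.71, on approximately 334, 102 and 452 fragments. For both genes the HFD-veh library was the low one. Markers of oxidative muscle fibres were low in the same library, with summed levels of 1435, 1103 and 1401 FPKM in the order used above. Most of the sums came from Mb, at 839, 609 and 745 FPKM, and Myh2, at 552, 487 and 609 FPKM, both within 2-fold. The other 6 of 8 were over 2-fold lower in HFD-veh than in NCD-veh, from levels of at most 13.4 FPKM in NCD-veh. Whether fibre content had a part in the carrier values was not tested.

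Slc25a30, Slc25a47 and Slc25a1 were higher in HFD-veh muscle. Slc25a30 (mm9 chr14:76161806-76186844), a relative of the uncoupling proteins described in kidney, was at 0.735 FPKM for NCD-veh, 2.80 for HFD-veh and 1.02 for HFD-ncls, a log2 ratio of 1.80, which was 1.78 after the subtraction of liver RNA. Slc25a47, the leading liver carrier, was at 1.18 FPKM for NCD-veh, 4.28 for HFD-veh and 0.828 for HFD-ncls, a log2 ratio of 1.78. After subtraction its HFD-veh value was 1.97 FPKM and the ratio 0.70, within 2-fold. Slc25a1 was at 1.77 FPKM for NCD-veh, 4.13 for HFD-veh and 1.91 for HFD-ncls, a log2 ratio of 1.18 that came to 0.88 after subtraction, also within 2-fold. All 15 liver markers were over 2-fold higher in this library than in NCD-veh muscle. Of 8 adipocyte markers, 3 were over 2-fold higher and 1 over 2-fold lower, with summed levels of 449, 448 and 497 FPKM in the order NCD-veh, HFD-veh and HFD-ncls. Among them Lep was at 0.133, 5.04 and 1.60 FPKM, Cidec at 5.89, 15.2 and 9.77 FPKM, Adipoq at 11.4, 21.1 and 14.3 FPKM and Cfd at 76.7, 33.4 and 43.9 FPKM. Slc25a1 was also abundant in WAT, and the part of adipocyte RNA in its muscle values was not tested. Slc25a22, another carrier abundant in liver, had the third lowest ratio, -0.87, and was at 7.62 FPKM for NCD-veh and 4.11 for HFD-veh. After subtraction the latter was 3.76 FPKM, just over 2-fold lower. The median over carriers was 0.03 against 0.03 over all genes.

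**Figure D3:**
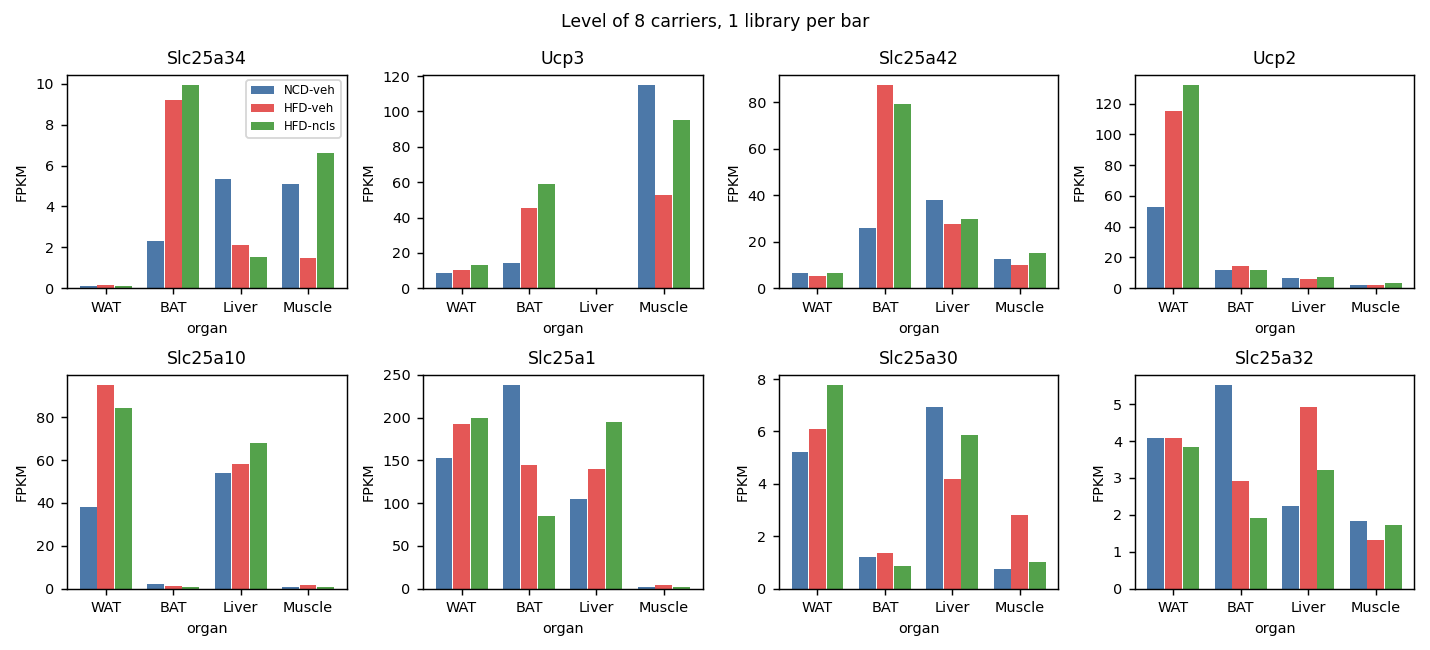
FPKM of 8 carriers in each of the 12 libraries, with organs on the horizontal axis and 1 bar per library coloured by group. Ucp3 and Slc25a34 lie lower in NCD-veh than in both HFD libraries of BAT, and lower in HFD-veh than in both other libraries of muscle.

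In HFD-veh WAT, 3 of 37 carriers were over 2-fold higher than in NCD-veh (5.24% of all genes) and none was over 2-fold lower (3.87%, or 9.11% either). The dicarboxylate carrier Slc25a10 (mm9 chr11:120353154-120360501) was at 38.1 FPKM for NCD-veh, 95.1 for HFD-veh and 84.5 for HFD-ncls, a log2 ratio of 1.32. Ucp2 was at 52.9 FPKM for NCD-veh, 115 for HFD-veh and 132 for HFD-ncls, a log2 ratio of 1.12. Both genes were lowest in NCD-veh. Macrophage markers differed in the same direction as Ucp2, with summed levels of 655, 973 and 1229.6 FPKM over 9 genes, of which 5 were over 2-fold higher in HFD-veh than in NCD-veh, while the 3 lymphocyte markers tested were over 2-fold lower. The part of these cells in the Ucp2 values was not tested.

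Slc25a13, the liver form of the aspartate-glutamate carrier, was at 0.450 FPKM for NCD-veh, 1.23 for HFD-veh and 1.94 for HFD-ncls in WAT. Its log2 ratio was 1.28, and 1.23 after liver RNA was subtracted. All 10 liver markers tested were over 2-fold higher in HFD-veh WAT than in NCD-veh WAT. The lowest ratios were Slc25a29 at -0.85, Slc25a23 at -0.65 and Slc25a26 at -0.39. Slc25a1, the most abundant WAT carrier, was at 153 FPKM for NCD-veh, 192 for HFD-veh and 199 for HFD-ncls, a log2 ratio of 0.33. Over all WAT carriers the median was 0.14, against 0.03 over all genes.

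In HFD-veh liver, 1 of 36 carriers was over 2-fold higher than in NCD-veh (2.86% of all genes) and 1 was over 2-fold lower (2.27%, or 5.12% either). Slc25a32 (mm9 chr15:38925737-38944262) was the higher gene, at 2.25 FPKM for NCD-veh, 4.94 for HFD-veh and 3.21 for HFD-ncls, a log2 ratio of 1.10. Slc25a34 was the lower gene, at 5.34 FPKM for NCD-veh, 2.11 for HFD-veh and 1.53 for HFD-ncls, a log2 ratio of -1.30, and was thus lower in both HFD libraries of liver but higher in both of BAT. Next in rank were Slc25a21 at 0.93 and Slc25a4 at 0.85, the latter 0.09 after subtraction of muscle RNA, and at the other end Slc25a30 at -0.71 and Slc25a22 at -0.64. The abundant Slc25a47 was at 278 FPKM for NCD-veh, 407 for HFD-veh and 313 for HFD-ncls, a log2 ratio of 0.55. The median was 0.17 over carriers and 0.04 over all genes.

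**Figure D4:**
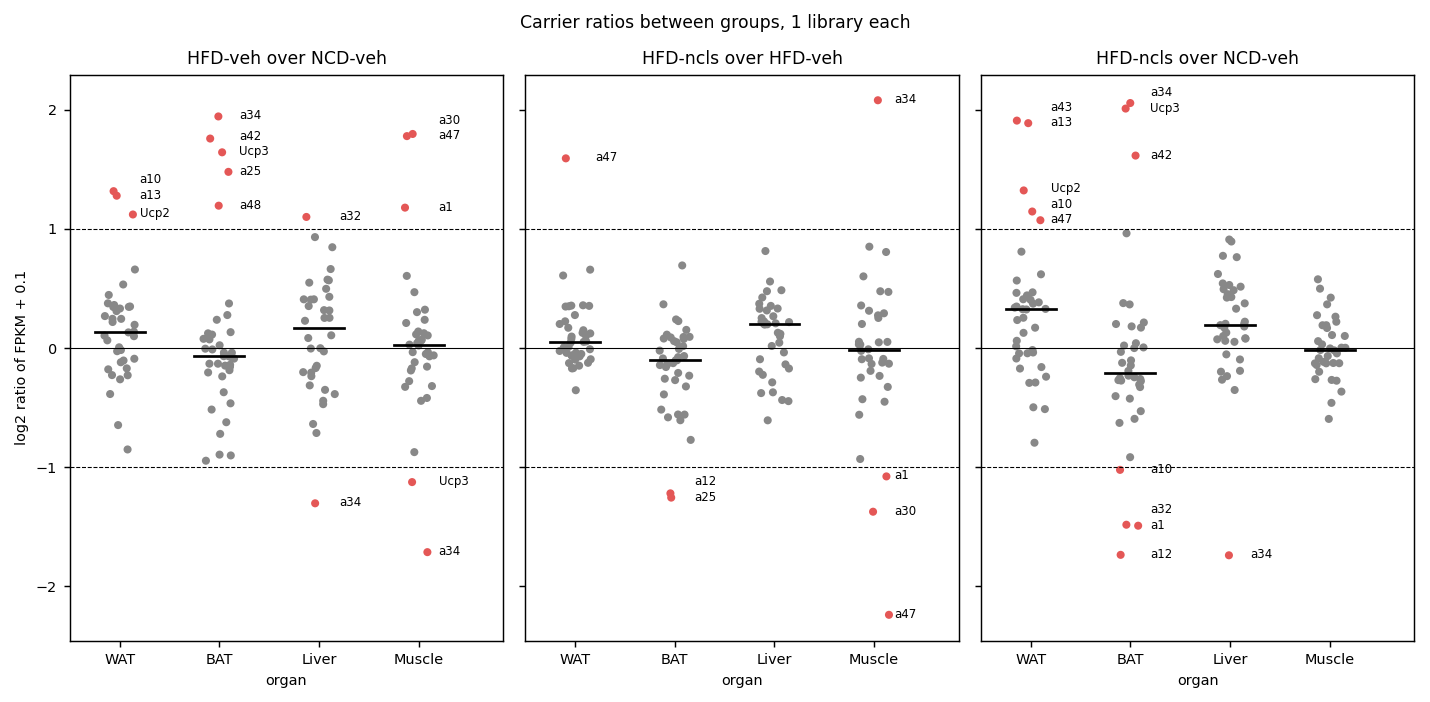
Log2 ratio of each tested carrier (FPKM + 0.1) in each organ, with 1 panel for each of the 3 comparisons, 1 point per carrier (red where over 2-fold apart), dashed lines at 2-fold and bars at the median of the carriers. Labels shorten Slc25a to a. Most points lie between the dashed lines, and Slc25a34 in muscle lies at -1.71 for HFD-veh over NCD-veh and at 2.08 for HFD-ncls over HFD-veh.

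The comparison of HFD-ncls with HFD-veh asks what ncls added on the same diet. In muscle, 1 of 36 carriers was over 2-fold higher in HFD-ncls (1.27% of all genes) and 3 were over 2-fold lower (2.53%, or 3.8% either). Slc25a34 was the higher gene, with a log2 ratio of 2.08. Ucp3, at 0.85, and Slc25a22, at 0.81, followed within 2-fold. Ucp2, low in muscle, was also within 2-fold, at 2.17 FPKM for NCD-veh, 2.34 for HFD-veh and 3.29 for HFD-ncls. Oxidative fibre markers differed the same way, with 6 of 8 over 2-fold higher, while the most abundant, Mb and Myh2, were higher within 2-fold. The lower genes were Slc25a47 at -2.24, Slc25a30 at -1.37 and Slc25a1 at -1.08. After the liver RNA of the HFD-veh library was subtracted, these were -1.16, -1.36 and -0.78, the last within 2-fold. Medians were -0.02 over carriers and 0.04 over all genes.

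In BAT, none of 39 carriers was over 2-fold higher with ncls than in HFD-veh (0.261% of all genes) and 2 were over 2-fold lower (1.7%, or 1.97% either). These were Slc25a25, at -1.25, and Slc25a12, at -1.22. Slc25a12, the muscle form of its pair, was at 3.03 FPKM for NCD-veh, 2.09 for HFD-veh and 0.840 for HFD-ncls as deposited, and at 1.24, 1.31 and 0.840 FPKM after muscle RNA was subtracted, when the ratio was -0.58. Slc25a1 was next, at -0.77. In BAT it was listed at 238 FPKM for NCD-veh, 145 for HFD-veh and 84.7 for HFD-ncls, the lowest value in HFD-ncls. At the upper end stood Slc25a29 at 0.69, Ucp3 at 0.37 and Slc25a37 at 0.24. The median was -0.10 over carriers and -0.02 over all genes.

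In WAT, 1 of 39 carriers was over 2-fold higher with ncls than in HFD-veh (1.49% of all genes) and none was over 2-fold lower (0.214%, or 1.7% either). The gene was Slc25a47, at 0.700 FPKM for NCD-veh, 0.458 for HFD-veh and 1.58 for HFD-ncls, a log2 ratio of 1.59. Liver markers were higher in the same library, 12 of 14 over 2-fold. After subtraction of liver RNA, Slc25a47 in HFD-ncls WAT was at 0.795 FPKM, under the filter of 1 FPKM, and its log2 ratio was 1.39. Slc25a43 at 0.66 and Slc25a13 at 0.61 followed, and the lowest were Slc25a25 at -0.35, Slc25a10 at -0.17 and Slc25a46 at -0.17. Ucp2 differed by 0.20. The median was 0.05 over carriers and 0.04 over all genes.

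In liver, none of 36 carriers was over 2-fold apart between HFD-ncls and HFD-veh, against 2.31% of all genes. The highest ratios were Slc25a48 at 0.81, Slc25a25 at 0.56 and Slc25a1 at 0.49. The lowest were Slc25a32 at -0.61, Slc25a21 at -0.45 and Slc25a34 at -0.44. Slc25a1, the citrate exporter, was at 105 FPKM for NCD-veh, 139 for HFD-veh and 195 for HFD-ncls in liver, highest in HFD-ncls, while in BAT it was lowest there. The median was 0.20 over carriers and 0.02 over all genes.

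**Figure D5:**
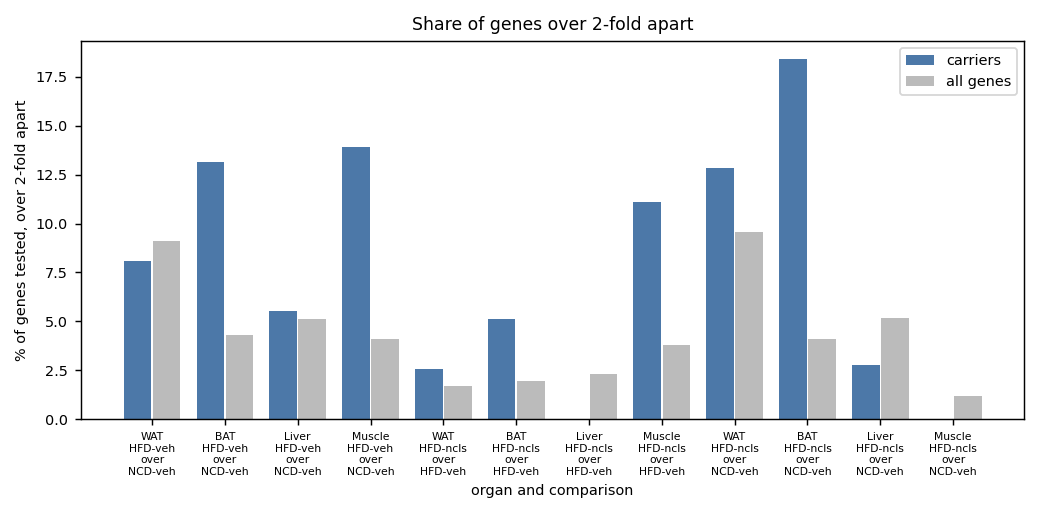
Percentage of tested carriers and of all tested genes over 2-fold apart, in either direction, for each organ and each of the 3 comparisons. The carrier bar is highest for HFD-ncls over NCD-veh in BAT, at 18.4% of 38 carriers, where all genes are at 4.1%.

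HFD-ncls was also set directly against NCD-veh. In BAT 3 of 38 carriers were over 2-fold higher (1.36% of all genes) and 4 were over 2-fold lower (2.74%, or 4.1% either). Slc25a34 at 2.06, Ucp3 at 2.01 and Slc25a42 at 1.61 were higher, as they were in HFD-veh. Slc25a12 at -1.73, Slc25a1 at -1.49, Slc25a32 at -1.48 and Slc25a10 at -1.02 were lower. Slc25a32 was listed at 5.52 FPKM for NCD-veh, 2.91 for HFD-veh and 1.91 for HFD-ncls and Slc25a10 at 1.97, 1.398 and 0.918 FPKM, with HFD-veh between the other groups in each. After subtraction of muscle RNA the Slc25a12 ratio was -0.51, and those of Slc25a1 and Slc25a32 were -1.49 and -1.47.

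In WAT, 5 of 39 carriers were over 2-fold higher with ncls than in NCD-veh (7.11% of all genes) and none was over 2-fold lower (2.48%, or 9.59% either). They were Slc25a43 at 1.91, Slc25a13 at 1.89, Ucp2 at 1.32, Slc25a10 at 1.15 and Slc25a47 at 1.07. Slc25a43, whose substrate is not settled, was at 0.274 FPKM for NCD-veh, 0.790 for HFD-veh and 1.30 for HFD-ncls. The ratio of Slc25a47 was 0.16 after subtraction of liver RNA, and that of Slc25a13 was 1.77. Slc25a23 at -0.79, Slc25a26 at -0.51 and Slc25a29 at -0.50 were the lowest.

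In liver, Slc25a34 at -1.74 was the single carrier of 36 over 2-fold apart between HFD-ncls and NCD-veh (2.62% of all genes lower, 2.58% higher, 5.2% either). The highest ratios were Slc25a25 at 0.91, Slc25a1 at 0.89 and Slc25a44 at 0.77, and Slc25a42 at -0.35 and Slc25a22 at -0.27 came after Slc25a34 at the lower end. In muscle, none of 35 carriers was over 2-fold apart, against 1.21% of all genes. Muscle ratios ran from -0.59 for Slc25a35, -0.46 for Slc25a47 and -0.37 for Slc25a17 up to 0.42 for Slc25a30, 0.50 for Slc25a40 and 0.58 for Ucp2.

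More carriers passed the lower threshold of 1.4-fold, in either direction. For HFD-veh over NCD-veh there were 7 in WAT (29.3% of all genes), 11 in BAT (17.6% of all genes), 11 in liver (23.8% of all genes) and 7 in muscle (13.2% of all genes). For HFD-ncls over HFD-veh the counts were 3 in WAT (7.68% of all genes), 9 in BAT (8.53% of all genes), 3 in liver (14.9% of all genes) and 9 in muscle (13.9% of all genes). For HFD-ncls over NCD-veh they were 11 in WAT (30.3% of all genes), 12 in BAT (15.2% of all genes), 11 in liver (21% of all genes) and 3 in muscle (8.88% of all genes).

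Across the 3 comparisons, 14 of the 43 tested carriers were over 2-fold apart in at least 1 organ, or 32.6%, against 21% of all genes. These shares are not matched for how often a gene passed the filter, and their difference was not tested. Each organ and comparison tested 35 to 39 of the 43 carriers and 9514 to 12357 of 13663 genes. Of the carriers among the 5 highest of an organ, Slc25a3, Slc25a4, Slc25a5, Slc25a11, Slc25a20 and Slc25a39 passed 2-fold in no organ and comparison. Slc25a1, Slc25a12, Slc25a47, Ucp2 and Ucp3 did in at least 1. Slc25a12 passed in BAT and not in muscle, and its BAT ratios came within 2-fold after muscle RNA was subtracted. Slc25a47 passed in WAT and muscle and not in liver. After liver RNA was subtracted, its call remained only in muscle for HFD-ncls over HFD-veh. Shares between related genes also differed between groups. In BAT the Ucp3 share of Ucp2 and Ucp3 was 54.7% for NCD-veh, 76.2% for HFD-veh and 83.3% for HFD-ncls. The Slc25a42 share of the coenzyme A carriers Slc25a16 and Slc25a42 in BAT was 75.4%, 95.1% and 94.7% in the same order. In WAT the Slc25a13 share of the aspartate-glutamate carriers was 11.1%, 21.0% and 28.6%, the Slc25a33 share of the pyrimidine carriers 16.4%, 26.1% and 29.2%, and the Slc25a23 share of the ATP-Mg/phosphate carriers 68.8%, 52.7% and 53.8%.

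A difference shared by the 4 organs was looked for with a fit that takes the organs as repeats, since each group had a library in every organ. In the limma fit with organ and group as terms, which left 6 residual degrees of freedom, 0 of 43 carriers passed an adjusted p of 0.05 in any of the 3 comparisons, and 0% of all genes did. At an unadjusted p under 0.05 there were 4 carriers for HFD-veh over NCD-veh, 0 for HFD-ncls over HFD-veh and 2 for HFD-ncls over NCD-veh, and without a trend in the variance these counts were 3, 0 and 1. The 4 carriers were Slc25a29, with a log2 difference over the organs of -0.52 ± 0.18 (SE) and an adjusted p of 0.626, Slc25a25 at 0.65 ± 0.25 (SE), Slc25a24 at 0.34 ± 0.14 (SE) and Slc25a51 at 0.24 ± 0.10 (SE). Slc25a24 and Slc25a51 were also the 2 of HFD-ncls over NCD-veh, at 0.48 ± 0.14 (SE) and 0.25 ± 0.10 (SE), with adjusted p of 0.864 and 0.875. The spread in this fit is that of the group differences between organs, so it gives no test of a difference within 1 organ. Whether the organs of a group came from the same mice is not given in the sources used here. The p-values and SE therefore cannot be read as the spread between mice.

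Other genes of mitochondrial transport were taken from lists. In all 4 organs and all 3 comparisons, no tested gene was over 2-fold apart among Ucp1, Mtch1 and Mtch2 (relatives outside the naming rule), the 2 subunits of the pyruvate carrier (Mpc1 and Mpc2), the 3 porins of the outer membrane, the 11 import proteins that insert carriers into the inner membrane, the 4 calcium uniporter genes found and the 9 citric acid cycle enzymes. Among 5 genes of the carnitine shuttle, Cpt1b, the muscle form of the enzyme that makes acylcarnitines for Slc25a20, was over 2-fold higher in both HFD libraries of WAT, at 0.501 FPKM for NCD-veh, 2.04 for HFD-veh and 2.47 for HFD-ncls. Among 5 sideroflexins, which form another family of mitochondrial transporters, Sfxn1, a serine carrier, was over 2-fold lower there, at 79.8 FPKM for NCD-veh, 32.9 for HFD-veh and 31.3 for HFD-ncls. Mpc1 was at 288 FPKM for NCD-veh, 222 for HFD-veh and 183 for HFD-ncls in BAT, in the same order from NCD-veh to HFD-ncls as Slc25a1.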

How the data were processed

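Male C57BL/6J mice gave 12 RNA-seq libraries, 1 for each of 4 organs and 3 groups. The authors aligned the reads to mm9 with TopHat (version 2.0.11) and used Cufflinks to obtain FPKM for RefSeq genes, which are the deposited values. Scaling between libraries beyond FPKM is not stated. Samples were assigned from their labels. Columns were used as deposited. No value was given for 86 of 22276 symbols in at least 1 library, none of them carriers. With 1 library per organ and group there is no test within an organ. Differences shared by the organs, and differences between organs, were tested with limma (version 3.58.1, R 4.3.3) on log2(FPKM + 0.1) over all 12 libraries, with organ and group as terms and Benjamini-Hochberg adjustment over 13648 genes. This fit was added after the data were seen.

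Ratios were taken on log2(FPKM + 0.1) for genes at 1 FPKM or more in at least 1 of the libraries compared, with thresholds of 2-fold and 1.4-fold. RNA of liver or muscle in another organ was estimated as the median, over enriched genes, of the excess over that organ's lowest library. Enriched genes had a mean of at least 10 FPKM in the source organ and 20 times the median of the other organs' libraries. A gene abundant in 1 other organ could thus be included. Cpt1b, at 106 FPKM in NCD-veh muscle and 184 in NCD-veh BAT, met the rule for muscle. Named genes were the 5 highest per organ, preferred carriers, those past 2-fold, the 3 highest and 3 lowest ratios of each comparison and 8 carriers followed in every organ. Values of 1 carrier are not reported here, though counts and sums include it. Members and lists were chosen with earlier results of these data known. Positions on mm9 are from GENCODE for 46 carriers. Fragment numbers are approximate and cover no counting interval. Alternatives changed 1 choice at a time. The scripts (Python 3.11.15, numpy 2.4.6, pandas 2.3.3, matplotlib 3.10.9) were tested on simulated data.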

Additional observations from a re-analysis of the deposited data

Results flagged for a closer look

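Slc25a34, Ucp3, Slc25a47 and Slc25a10 were over 2-fold apart in opposite directions in different organs under the same comparison. The difference between organs was not tested in any of these cases, since each rests on 1 library per group. For HFD-veh over NCD-veh, the log2 ratio of Slc25a34 was 1.94 in BAT, -1.30 in liver and -1.71 in muscle, and that of Ucp3 was 1.64 in BAT and -1.12 in muscle. For HFD-ncls over HFD-veh, Slc25a47 was at 1.59 in WAT and -2.24 in muscle, where liver RNA was higher in HFD-ncls WAT and in HFD-veh muscle, and after its subtraction the values were 1.39 and -1.16. The WAT value after subtraction rests on at most 0.795 FPKM, under the filter of 1 FPKM, so that the call in WAT was lost. For HFD-ncls over NCD-veh, Slc25a10 was at 1.15 in WAT and -1.02 in BAT, and Slc25a34 was at 2.06 in BAT and -1.74 in liver. Slc25a10 in BAT was at 1.97 FPKM for NCD-veh and 0.918 for HFD-ncls, so its BAT ratio rests on levels near the filter of 1 FPKM and is just over 2-fold.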

How the results depend on the processing

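No value over 2-fold changed direction under the alternatives run. Within 2-fold, Slc25a12 in BAT for HFD-veh over NCD-veh went from -0.52 to 0.07 on the log2 scale after muscle RNA was subtracted. Of the alternatives to counts, preferences and shares, 135 stayed close to the reported value and 33 moved, and of those to counts in 1 direction and to single log2 ratios 712 stayed and 56 moved. For HFD-veh over NCD-veh, a pseudocount of 1 gave 3 carriers over 2-fold apart in BAT and 1 in liver, no filter gave 5 in WAT and 4 in liver, and a filter of 5 FPKM gave 3 in BAT, 1 in liver and 2 in muscle. For HFD-ncls over HFD-veh, a pseudocount of 1 gave 0 in WAT, 0 in BAT and 2 in muscle, no filter gave 2 in WAT, a filter of 5 FPKM gave 0 in WAT, 0 in BAT and 1 in muscle, and subtraction of RNA from other organs gave 0 in WAT and 1 in BAT. For HFD-ncls over NCD-veh, a pseudocount of 1 gave 3 in WAT, no filter gave 4 in liver and a filter of 5 FPKM gave 2 in WAT. At 1.4-fold the counts in WAT, BAT and liver were 7, 11 and 11 for HFD-veh over NCD-veh. They were 3, 9, 3 and 9 in WAT, BAT, liver and muscle for HFD-ncls over HFD-veh, and 11, 12, 11 and 3 for HFD-ncls over NCD-veh. With a preference factor of 4, WAT preferred 1 carrier and BAT 0. Leaving out each group in turn gave 3 to 4 preferred carriers in WAT, 2 to 3 in BAT, 6 to 8 in liver and 3 in muscle. Without NCD-veh, WAT gained Slc25a43 and BAT gained Slc25a42. The median Slc25a4 share in liver was 0.989% and fell to 0.734% after subtraction of muscle RNA. Causes were not tested beyond what each alternative does by construction.

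The labels carry no replicate numbers, so groups were paired by organ alone, in the limma fit with organ as a term, which was chosen after the data were seen. Its count of 0 carriers in each group comparison held without a trend in the variance, with a pseudocount of 1, with a filter of 5 FPKM, after subtraction and without each organ in turn, while its count of carriers that differed between organs was 37 to 42 of 41 to 43 tested with 1 organ left out (all 43 otherwise, or 36 of 36 with the filter of 5 FPKM). Ratios of carriers under about 5 FPKM depend on the pseudocount and the filter, and rescaling moved any library by at most 0.04 on the log2 scale.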

Other observations

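Some carriers lie next to each other on the chromosome. On mm9, Ucp3 and Ucp2 are on the plus strand of chromosome 7 with 6.90 kb between them. Ucp3 was highest in muscle and Ucp2 in WAT, and in HFD-veh muscle Ucp3 was at a log2 ratio of -1.12 to NCD-veh while Ucp2 was at 0.11. Slc25a29 and Slc25a47, on opposite strands of chromosome 12, are 15.2 kb apart. Slc25a47 reached 278 to 407 FPKM in liver and Slc25a29 0.927 to 1.18 FPKM. Slc25a41 and Slc25a23, on the minus strand of chromosome 17, are 2.06 kb apart, and Slc25a41 was listed at 0 in all 3 liver libraries, where Slc25a23 was at 104 to 139 FPKM. Slc25a43 and Slc25a5 are 18.4 kb apart on the X chromosome, and Slc25a43 passed 1 FPKM in HFD-ncls WAT alone, where Slc25a5 was at 169.7 FPKM.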
